A study of Mus musculus with 6 samples.

Results

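The Ifi200 family genes of mouse chromosome 1 were described here through 6 of the 24421 genes in the count table: Ifi204, Mnda, Mndal, Ifi203, Aim2 and Pyhin1. They were taken by gene symbol, and the group was chosen by the counts of Ifi204 and Mnda, which were far higher in Srebp2cKO regulatory T cells. The members' difference between the genotypes is therefore given as a description, without a p-value, and the calls that the fit over all genes made for them support nothing. Another 6 rows of the table belong to the same family and were used for comparison.

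The libraries held RNA of regulatory T cells (Tregs), which are CD4 T cells that depend on the transcription factor Foxp3, from spleen and lymph nodes. The Srebp2cKO group had 3 libraries (replicates 6, 7 and 8) of genotype Srebp2FL/FL-Foxp3YFPCRE+/-, with both alleles of the SREBP2 gene floxed. The Srebp2WT group had 3 libraries (replicates 1, 3 and 5) of genotype Srebp2WT/WT-Foxp3YFPCRE+/+. All libraries thus came from mice in which Foxp3 carries yellow fluorescent protein and a Cre recombinase. The Cre alleles were +/- in Srebp2cKO and +/+ in Srebp2WT, so effects of the Cre genotype and of the Srebp2 genotype cannot be told apart. The study set the transcriptomes of these Tregs side by side to look for consequences of losing SREBP2, which drives transcription of cholesterol synthesis genes. The sources used here do not give age, sex, strain, pooling or the sort gate. They also do not say whether each library came from its own animal, and p-values may thus reflect technical spread between samples alone.

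Counts assigned to genes totalled 13918321 to 17249898 in Srebp2cKO libraries and 14694290 to 15547538 in Srebp2WT libraries. Srebf2, the gene for SREBP2, had 187, 197 and 183 counts in Srebp2cKO libraries, against 3043, 2980 and 2548 counts in Srebp2WT libraries. It fell by 3.91 on the log2 scale (SE 0.11, edgeR adjusted p = 1.5e-08). The 7 Treg markers summed to 4210 ± 80.6 CPM in Srebp2cKO and 4380 ± 120 CPM in Srebp2WT (counts scaled to library size; mean ± SD with n = 3 per genotype, as in all means that follow; exact two-sided permutation p = 0.2, where 0.1 is the smallest p possible). Of these markers, Il2ra was called higher (log2 fold change 0.41, edgeR adjusted p = 0.0101), a call lost without Srebp2WT replicate 3. Tnfrsf18 was called lower (-0.39, edgeR adjusted p = 0.0438), a call lost without Srebp2WT replicate 1 or 3 or Srebp2cKO replicate 7 or 8 and with the GC trend removed. Foxp3 itself had 6345 to 7183 counts in Srebp2cKO libraries and 6807 to 7137 counts in Srebp2WT libraries. With edgeR, 11932 genes were tested and a gene was called at an adjusted p under 0.05, which gave 283 genes called higher in Srebp2cKO (2.37%) and 506 called lower (4.24%). With total-count scaling, 184 were called higher and 570 lower.

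Proteins of the Ifi200 or PYHIN family join a pyrin domain, through which they bind other proteins, to HIN domains that bind DNA, although some members have only the pyrin domain. Many are induced by interferon. AIM2 senses double-stranded DNA in the cytosol and builds an inflammasome with the adaptor ASC, and in mouse Tregs it has been reported to restrain AKT signalling. The product of Ifi204, p204, has been reported to sense DNA upstream of STING and to bind the retinoblastoma protein, and is known mainly from myeloid cells. The human counterpart of Mnda is the myeloid cell nuclear differentiation antigen. The gene content and expression of the cluster differ between inbred mouse strains.

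Of the 12 family rows, 11 could be placed on GRCm38, all on chromosome 1 between 173350879 and 174031810, a span of 681 kb. Aim2 lies at chr1:173350879-173466040 on the plus strand and Pyhin1, which RefSeq now lists as Ifi209, at chr1:173630917-173647928 on the plus strand. The other members lie on the minus strand: Ifi204 at chr1:173747293-173766943, Mnda (listed as Ifi211) at chr1:173896345-173913046, Ifi203 at chr1:173920407-173942672 and Mndal at chr1:173849126-173942491. The gene model of Mndal spans that of Mnda and overlaps that of Ifi203, which reaches slightly further upstream. Exons of Mndal share only 37 bases with exons of Ifi203, 1.02% of the exonic bases of Mndal.

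The genes are near copies of each other in places, and this bears on which gene a read is counted for. Ifi204 and Mnda were the pair of members with the largest difference between the genotypes, and Ifi203 and Mndal were an abundant pair with overlapping groups. The first 120 coding bases, from the end of the protein that holds the pyrin domain, are shown for these pairs from GENCODE M21 transcripts. Capitals in Mndal mark where it differs from Ifi203, which has 3 more bases at its start.
Ifi204 and Mnda (identical over this stretch): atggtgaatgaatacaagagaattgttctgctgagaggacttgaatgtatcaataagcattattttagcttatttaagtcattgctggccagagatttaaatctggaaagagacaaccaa
Ifi203: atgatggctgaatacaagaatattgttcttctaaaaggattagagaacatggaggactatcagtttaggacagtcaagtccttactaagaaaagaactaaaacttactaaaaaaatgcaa
Mndal: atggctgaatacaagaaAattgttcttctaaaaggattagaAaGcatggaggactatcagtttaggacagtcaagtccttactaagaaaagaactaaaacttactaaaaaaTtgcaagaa
Over the first 240 coding bases, Ifi204 and Mnda differ at a single base, C200A, with positions counted from 1 at the start codon of Ifi204 and the Ifi204 base first. Ifi203 and Mndal are identical at 231 of 237 aligned bases (97.5%). Between these pairs the likeness drops, to 62.9% between Ifi204 and Mndal. Aim2 is the most distant member, at 54.7% identity with Ifi204.

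Over whole transcripts, the share of 50-base words that a gene holds in common with another family row was 72.8% for Mnda, 19.1% for Ifi204, 17.3% for Mndal and 3.87% for Ifi203. Aim2 and Pyhin1 had 0 such words. Mnda shared 44.7% of its words with Ifi205 and 30.1% with Ifi204, and its longest identical run with Ifi204 was 306 bases. Pyhin1 shared 33.8% of its words with genes outside the family rows, most of all with Ifi214, which is no row of the table under that name. How the authors counted reads with several matches is not stated in the labels, and the count of Mnda is the least certain of the 6 on this measure.

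**Figure D1:**
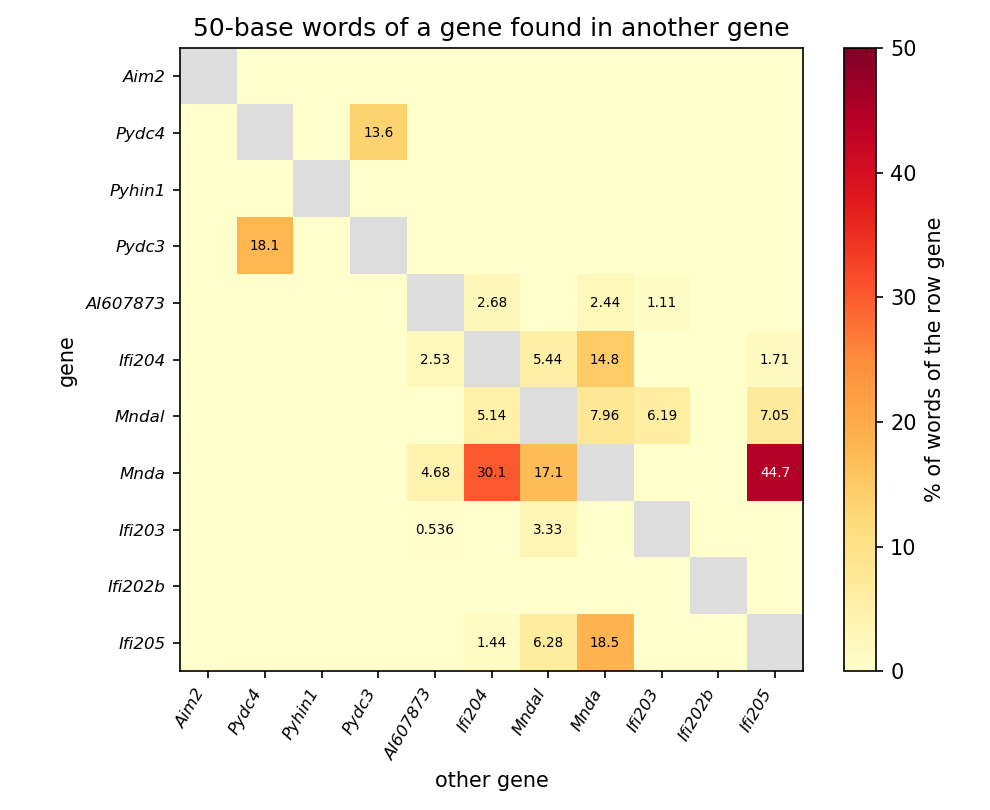
Heat map of shared sequence among 11 Ifi200 family genes placed on chromosome 1. Each cell gives the percentage of 50-base words in the transcripts of the row gene that also occur in transcripts of the column gene. Transcripts were compared as transcribed, without the reverse strand. Mnda shares 44.7% of its words with Ifi205 and 30.1% with Ifi204, while the rows of Aim2 and Pyhin1 hold no shared words.

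The promoters of the family carry a recurring sequence. An interferon-stimulated response element was searched for as GAAA, any 2 bases and GAAA again, on both strands, from 250 bases before to 50 bases after each start in RefSeq on GRCm38. It occurred in 1131 of 32851 mouse promoters (3.44%) and in promoters of 7 of the 10 family rows with a sequence. Among the members it was found for Mnda, Mndal and Ifi203 and not for Aim2 and Pyhin1, and the promoter of Ifi204 was not analysed here. The 40 bases around the match nearest the start are shown on the strand of the gene, with the match in capitals, to set genes that differed between the genotypes beside genes that did not.
Mnda, chr1:173913059-173913098, minus strand: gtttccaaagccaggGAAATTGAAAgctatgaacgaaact
AI607873, chr1:173741826-173741865, minus strand: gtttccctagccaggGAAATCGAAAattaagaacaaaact
Ifi203, chr1:173942503-173942542, minus strand: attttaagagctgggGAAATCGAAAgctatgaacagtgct
Mndal, chr1:173880199-173880238, minus strand: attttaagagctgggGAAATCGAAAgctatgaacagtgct
Pydc3, chr1:173673592-173673631, plus strand: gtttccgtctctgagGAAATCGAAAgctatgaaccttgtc
Pydc4, chr1:173599321-173599360, minus strand: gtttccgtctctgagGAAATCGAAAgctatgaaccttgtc
The windows of Ifi203 and Mndal are identical, as are those of Pydc3 and Pydc4. The match lies 35 to 37 bases from the start in Ifi203, Mndal and Mnda. A match to these letters is a description of the sequence and does not show a site in use.

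Ifi204 had 508, 684 and 282 counts in Srebp2cKO libraries (replicates 6, 7 and 8), against 11, 3 and 9 counts in Srebp2WT libraries (replicates 1, 3 and 5). Every Srebp2cKO library lay far above every Srebp2WT library, and Srebp2cKO replicate 8 was the lowest of its group. Scaled with TMM factors, Ifi204 averaged 32.6 ± 14.4 CPM in Srebp2cKO and 0.497 ± 0.266 CPM in Srebp2WT, a 65.6-fold difference. The fitted log2 fold change was 6.01 (SE 0.48, 95% interval 4.95 to 7.07). Pooled counts were 1474 in Srebp2cKO and 23 in Srebp2WT, a ratio of 64.1 with an exact interval of 42.5 to 101.4 that covers counting error only. In bulk RNA, more cells with Ifi204 transcript and more transcript per cell cannot be told apart.

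Mnda had 126, 147 and 84 counts in Srebp2cKO libraries, against 16, 10 and 12 counts in Srebp2WT libraries. The groups did not overlap, and replicate 8 was again the lowest Srebp2cKO library. Mnda averaged 7.88 ± 2.58 CPM in Srebp2cKO and 0.820 ± 0.179 CPM in Srebp2WT (log2 fold change 3.24, SE 0.33). The pooled counts, 357 in Srebp2cKO and 38 in Srebp2WT, gave a ratio of 9.39 (exact interval 6.71 to 13.5). Reads of Ifi204 and Mnda cannot be told apart in the stretches that both transcripts hold. Libraries of Srebp2cKO held 4.03, 4.65 and 3.36 Ifi204 counts for each Mnda count, and Srebp2WT libraries held 0.688, 0.300 and 0.750. Ifi204 was thus the more counted of the pair in Srebp2cKO and the less counted in Srebp2WT.

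Aim2 had 1010, 1339 and 1274 counts in Srebp2cKO libraries, against 1051, 803 and 833 counts in Srebp2WT libraries. After scaling, its values were 74.2, 86.4 and 74.3 CPM in Srebp2cKO and 65.9, 51.7 and 56.4 CPM in Srebp2WT. The groups did not overlap, but the gap between the nearest libraries was small beside the difference of Ifi204 or Mnda. The mean was 78.3 ± 7.02 CPM in Srebp2cKO and 58.0 ± 7.20 CPM in Srebp2WT, a 1.35-fold difference (log2 fold change 0.43, SE 0.11, 95% interval 0.20 to 0.67).

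The abundant members Mndal and Ifi203 overlapped between the genotypes. Mndal had 337, 499.9 and 379 CPM in Srebp2cKO libraries, against 356, 343 and 419.9 CPM in Srebp2WT libraries. Its log2 fold change was 0.12 (95% interval -0.18 to 0.42). Ifi203, an interferon-inducible member with the longest coding sequence of the 6 (2613 bases), had 495, 656 and 533 CPM in Srebp2cKO libraries, against 465, 484 and 586 CPM in Srebp2WT libraries. For Ifi203 the log2 fold change was 0.13 (95% interval -0.13 to 0.40). In both genes the highest library was Srebp2cKO replicate 7, and the intervals leave room for a difference in either direction. The number of Ifi203 counts for each Mndal count stayed within 1.31 to 1.47 in Srebp2cKO libraries and 1.31 to 1.41 in Srebp2WT libraries.

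Pyhin1, whose human counterpart is also known as IFIX, had 203.3, 257 and 267 CPM in Srebp2cKO libraries, against 238, 259 and 319.7 CPM in Srebp2WT libraries. The groups overlapped, with a log2 fold change of -0.17 (SE 0.13, 95% interval -0.45 to 0.12). It was the single member whose mean was lower in Srebp2cKO.

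**Figure D2:**
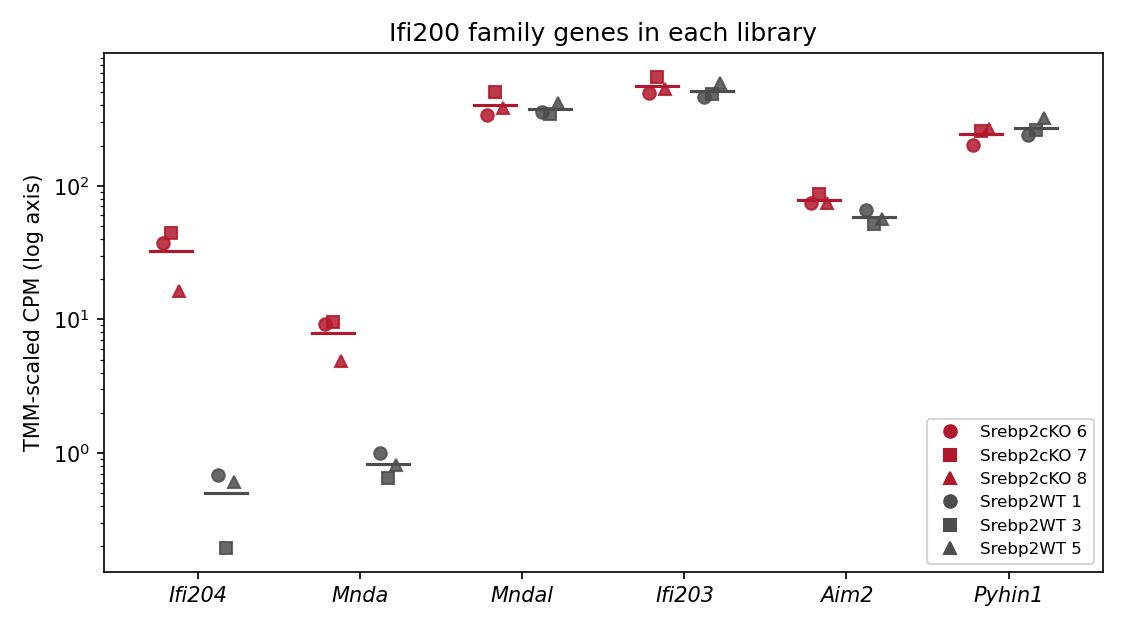
TMM-scaled CPM (log axis) of the 6 Ifi200 family genes, with 1 point for each library and bars at the mean of 3 libraries. Srebp2cKO is at the left (red) and Srebp2WT at the right (grey) of each gene; Ifi204 and Mnda are far apart, Aim2 is narrowly separated, and Mndal, Ifi203 and Pyhin1 overlap.

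All 6 members passed the filter on low counts, Ifi204 only through its Srebp2cKO libraries. Of them, 3 were called higher (Ifi204, Mnda and Aim2) and 0 lower, beside 2.37% of all genes tested that were called higher. The 3 were also the members with every Srebp2cKO library above every Srebp2WT library, a pattern found in 16.0% of all genes tested. The choice of members rests on this comparison, so nothing is read from these counts. The median log2 fold change was 0.28 over the members and -0.00 over all genes tested. The call of Aim2 was lost with scaling to total counts, after removal of a trend with transcript GC content, and without Srebp2WT replicate 3 or 5 or Srebp2cKO replicate 7 or 8.

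Members have AT-rich transcripts, with a GC content of 38.8% to 43.2% against a median of 49.9% over tested genes. With the GC trend of each library removed, the log2 fold change was 5.75 for Ifi204 and 3.03 for Mnda. It was 0.26 for Aim2, -0.15 for Mndal, -0.15 for Ifi203 and -0.42 for Pyhin1, so the sign of Mndal and Ifi203 changed. The small differences of the other members thus moved more with this setting than those of Ifi204 and Mnda did, relative to their size. Pyhin1 was called lower in that fit, while Ifi204 and Mnda were still called higher.

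Within a genotype, levels were ordered per kilobase of transcript. In Srebp2cKO the order was Mndal (367 ± 76.8 CPM per kb), Ifi203 (220.1 ± 33.01), Pyhin1 (96.4 ± 13.7), Aim2 (77.1 ± 6.92), Ifi204 (16.5 ± 7.29) and Mnda (4.41 ± 1.45). Only Pyhin1 and Aim2 overlapped as neighbours in that order. In Srebp2WT it was Mndal (338 ± 37.4 CPM per kb), Ifi203 (200.5 ± 25.4), Pyhin1 (108 ± 16.9), Aim2 (57.1 ± 7.09), Mnda (0.459 ± 0.1004) and Ifi204 (0.251 ± 0.135). The last pair of Srebp2WT was separated by little, on at most 16 counts in any library. The orders were the same with the longest transcript as the length, but the levels depended on it: in Srebp2cKO that length gave 200.1 CPM per kb for Mndal, 70.5 for Pyhin1 and 27.6 for Aim2.

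The summed level of the family was carried by its abundant members. The 12 rows summed to 1410 ± 203.9 CPM in Srebp2cKO and 1289 ± 152 CPM in Srebp2WT, and the fit of the summed rows gave a log2 fold change of 0.13. Ifi204 supplied 3.00%, 2.70% and 1.22% of family counts in Srebp2cKO libraries 6, 7 and 8. Their Wilson intervals ran from 2.75% to 3.27%, 2.50% to 2.90% and 1.08% to 1.37%. In Srebp2WT libraries the share of Ifi204 was at most 0.0580%, with a Wilson interval of 0.0324% to 0.104% in that library. Ifi203 made up 39.8% ± 0.298 of family counts in Srebp2cKO and 39.7% ± 0.507 in Srebp2WT. The share of Pyhin1 was 17.3% ± 2.197 in Srebp2cKO and 21.1% ± 0.949 in Srebp2WT. The libraries were barely separated, with 19.8% in Srebp2cKO replicate 8 and 20.0% in Srebp2WT replicate 1, and the CPM of Pyhin1 overlapped between the genotypes.

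The Srebp2cKO libraries were not alike in the genes that were highest over Srebp2WT. Replicate 8 held 0.404 times the mean of replicates 6 and 7 for Ifi204, 0.523 times for Mnda and 0.538 times for AI607873. The same ratio was 0.907 for Mndal, 0.926 for Ifi203, 0.925 for Aim2 and 1.16 for Pyhin1. Replicate 8 was thus low for Ifi204, Mnda and AI607873, while the other 4 members lay near the mean of the other libraries. The coefficient of variation of Ifi204 among Srebp2cKO libraries was 44.2%, where counting error alone would give 4.51%. Without replicate 8 the log2 fold change was 6.33 for Ifi204 and 3.50 for Mnda, and without Srebp2WT replicate 1 it was 6.33 and 3.42. Srebf2 had 10.7 CPM in replicate 8, against 13.7 and 12.7 CPM in replicates 6 and 7. The cause of the spread among Srebp2cKO libraries was not tested.

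**Figure D3:**
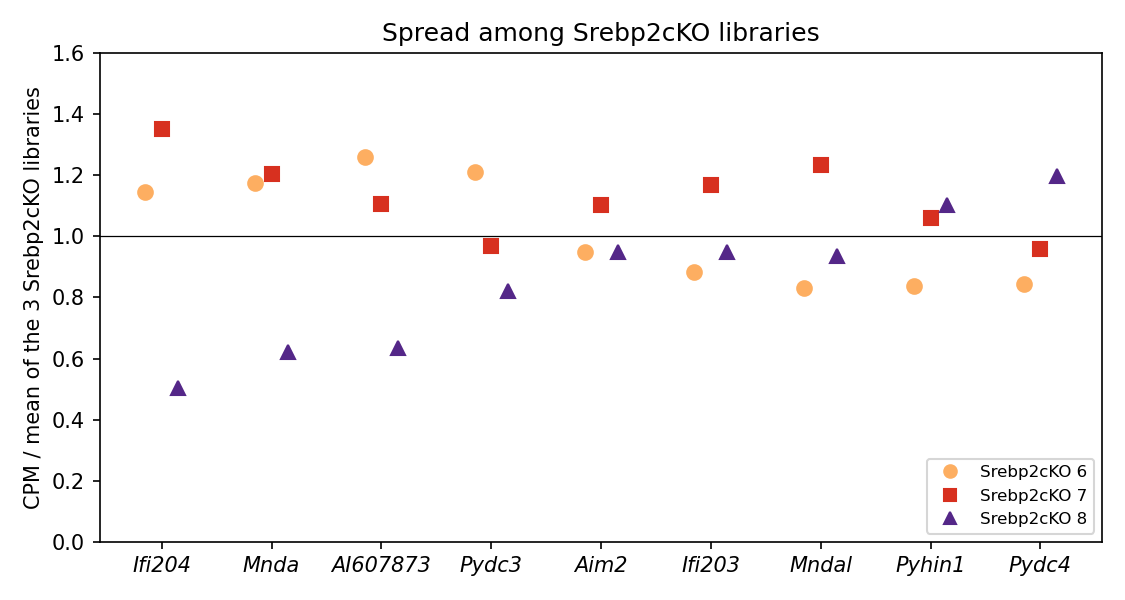
Level of 9 Ifi200 family genes in each Srebp2cKO library, as TMM-scaled CPM divided by the mean of the 3 Srebp2cKO libraries (linear axis from 0). Replicate 8 is the lowest library for Ifi204, Mnda, AI607873 and Pydc3 and the highest for Pyhin1 and Pydc4.

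Of 20 further family symbols, 6 were in the table and 4 passed the filter, of which 2 were called higher and 1 lower (median log2 fold change 0.60), beside 2.37% and 4.24% of all genes tested. That median includes AI607873, which had to differ to pass the filter. With AI607873 set apart, 1 was called in each direction. The log2 fold changes were then 0.75 for Pydc3, 0.44 for BC094916 and -0.70 for Pydc4. AI607873, listed by RefSeq as Ifi207 and the nearest family gene to Ifi204 in the cluster, had 22, 22 and 14 counts in Srebp2cKO libraries, against 0 in every Srebp2WT library. This is at least 6.59-fold higher in Srebp2cKO when each Srebp2WT library is set at a floor of 3 counts. The row passed the filter on low counts only through its Srebp2cKO libraries. AI607873 shares 2.68% of its words with Ifi204 and 2.44% with Mnda.

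Pydc3 (Ifi208) had 536, 489 and 458 counts in Srebp2cKO libraries, against 243, 309 and 337 counts in Srebp2WT libraries. It rose by a log2 fold change of 0.75 (SE 0.17, edgeR adjusted p = 0.0312), a call lost without Srebp2WT replicate 1 or 3 or Srebp2cKO replicate 7 and with the GC trend removed (adjusted p = 0.0709). Pydc4 (Ifi213) had 243, 315 and 435 counts in Srebp2cKO libraries, against 505, 531 and 553 counts in Srebp2WT libraries. It fell by 0.70 on the log2 scale (SE 0.13, edgeR adjusted p = 0.0182), with no overlap between the groups, a call lost without Srebp2WT replicate 3. Pydc3 shares 18.1% of its words with Pydc4, and their counts lay in opposite directions. The mean of Pydc3 was 32.5 CPM in Srebp2cKO and 19.3 CPM in Srebp2WT, and that of Pydc4 was 21.2 and 34.4 CPM. Whether reads were assigned differently between these near copies was not tested. BC094916, placed in the family from general knowledge and without a position here, had a log2 fold change of 0.44 and was not called (edgeR adjusted p = 0.0981). Ifi205 had 2, 7 and 3 counts in Srebp2cKO libraries and 2, 2 and 1 counts in Srebp2WT libraries. Ifi202b had at most 1 count in any library.

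Genes around the cluster were read from the same fit. Within 2 Mb on either side, 27 of 77 genes were tested, and 0 were called by edgeR, beside 6.61% of all genes tested. Unadjusted p-values were under 0.05 for 8 of them, beside 29.1% of all genes tested, and limma-voom called 0 (6.55% of all genes tested). DESeq2, which called 11.5% of the genes it gave an adjusted p, called 2, the SLAM-family receptor Cd84 and Pigm, an enzyme of GPI anchor synthesis, which had log2 fold changes of 0.24 (edgeR adjusted p = 0.0764) and 0.26 (edgeR adjusted p = 0.0695). The nearest tested gene on the centromeric side, the phosphatase Dusp23, lay 718 kb away with a log2 fold change of -0.20 (SE 0.34). On the telomeric side the fumarate hydratase gene Fh1 lay 1569 kb away with 0.08 (SE 0.10). The gaps leave the chromosome next to the cluster without a tested gene.

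**Figure D4:**
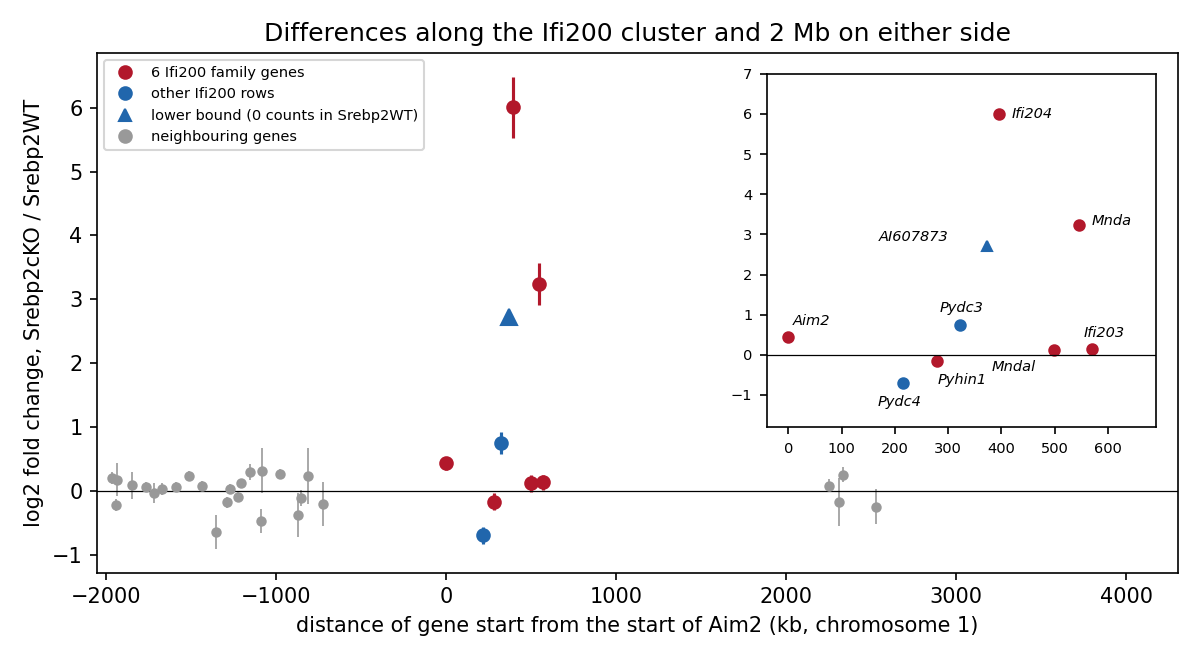
Log2 fold change (Srebp2cKO over Srebp2WT, bars show the standard error) by distance of the gene start from the start of Aim2 in kb, for Ifi200 family genes and for tested genes within 2 Mb. The inset enlarges the cluster; the triangle is the lower bound of AI607873, Ifi204 stands at 6.01 and Mnda at 3.24, and the neighbouring genes lie near 0.

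The family's proteins act in the sensing of DNA in the cytosol. Of 34 genes of cytosolic DNA sensing and inflammasomes, 31 were tested, 1 rose and 2 fell (median log2 fold change -0.13), a number of calls near the background of 2.37% higher and 4.24% lower over all genes tested. With edgeR, 15 of the 31 had an unadjusted p under 0.05, beside 29.1% of all genes tested. Every Srebp2cKO library lay below every Srebp2WT library in 11 and above in 6, beside 15.5% and 16.0% of all genes tested. Mlkl, the pseudokinase that executes necroptosis, fell by 1.63 (SE 0.38, edgeR adjusted p = 0.0332), and Casp4, the inflammatory caspase that responds to lipopolysaccharide, fell by 0.66 (SE 0.17, edgeR adjusted p = 0.0483). The helicase gene Dhx36 rose by 0.34 (SE 0.09, edgeR adjusted p = 0.0472), a call lost with total-count scaling, with the GC trend removed and in each fit with a library left out except that without Srebp2cKO replicate 6. The call of Mlkl was lost without Srebp2WT replicate 1 or Srebp2cKO replicate 7 or 8, and that of Casp4 without Srebp2WT replicate 1 or 3 or Srebp2cKO replicate 6 or 7 and with limma-voom. Casp8, the initiator caspase of extrinsic apoptosis, had a log2 fold change of 0.29 (edgeR adjusted p = 0.0503). The partners named next were chosen after their values were seen. Pycard, which encodes the adaptor ASC, had -0.16 (edgeR adjusted p = 0.267), Casp1 had -0.32 (edgeR adjusted p = 0.0981) and Tmem173, which encodes STING, had -0.07 (edgeR adjusted p = 0.518). Of the genes for proteins reported to bind p204, 6 of 7 were tested and 0 were called by edgeR or limma-voom. DESeq2 called 2 of these 6, beside 11.5% of all genes with that tool, and 4 had unadjusted p under 0.05 with edgeR, beside 29.1% of all genes tested: Id3 (log2 fold change -0.42), the retinoblastoma gene Rb1 (0.33), Rbl2 (-0.23) and Id2 (-0.29).

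Interferon-stimulated genes did not follow Ifi204 and Mnda. All 30 were tested, 27 had negative log2 fold changes, 5 fell and 1 rose (median -0.44), beside 4.24% of all genes tested that were called lower and 2.37% called higher. The antiviral genes Rsad2 and Oas1a fell by 1.10 (SE 0.21, edgeR adjusted p = 0.0184) and 0.92 (SE 0.17, edgeR adjusted p = 0.0144). Ifit1 fell by 0.43 (edgeR adjusted p = 0.0291) and Rtp4 by 0.44 (edgeR adjusted p = 0.0333). The other 2 calls, named after their values were seen, were Mx1, which fell by 1.02 (edgeR adjusted p = 0.0495), and Ifit2, which rose by 0.32 (edgeR adjusted p = 0.0402). Of these, Oas1a lost its call without Srebp2WT replicate 1, Rsad2 without Srebp2WT replicate 1 or 3, and Ifit1, Rtp4 and Mx1 without those or Srebp2cKO replicate 7 or 8, Mx1 also with limma-voom. Ifit2 kept its call only without Srebp2cKO replicate 6 and lost it with total-count scaling and with the GC trend removed. The number of calls ranged from 0 to 13 when a library was left out, beside 167 to 1487 calls among all genes in those fits. DESeq2 called 12, beside 11.5% of all genes with that tool. Of 20 interferon signalling genes, 19 were tested, 2 rose and 2 fell (median -0.05). The receptor genes Ifngr1 and Ifngr2 rose by 0.35 (edgeR adjusted p = 0.0296) and 0.45 (edgeR adjusted p = 0.0370). Irf7, a transcription factor of the type I interferon response, fell by 0.66 (edgeR adjusted p = 0.0333), and the receptor kinase gene Tyk2 fell by 0.43 (edgeR adjusted p = 0.0388). Each of these 4 calls was lost without Srebp2WT replicate 1 or 3 or Srebp2cKO replicate 7, that of Ifngr2 also without Srebp2WT replicate 5 and the others also without Srebp2cKO replicate 8.

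**Figure D5:**
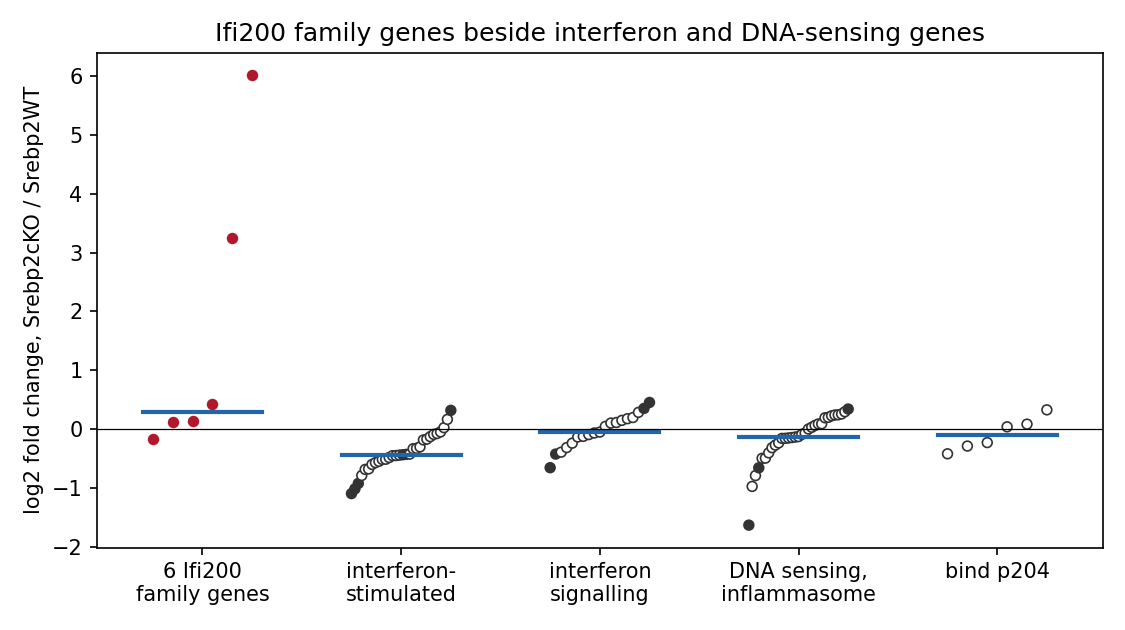
Log2 fold changes (Srebp2cKO over Srebp2WT) of the 6 Ifi200 family genes (red) and of tested genes in 4 lists, ordered by size within each list, with blue bars at the median. Filled grey points were called by edgeR at a false discovery rate of 0.05 and open points were not; the interferon-stimulated list has its median at -0.44 while Ifi204 stands at 6.01.

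Markers of myeloid cells, from which Ifi204 and Mnda are best known, summed to 39.5 to 45.9 CPM in Srebp2cKO libraries and 55.9 to 92.7 CPM in Srebp2WT libraries (exact two-sided permutation p = 0.1, the smallest possible). Of its 16 genes, Clec7a, S100a8 and S100a9 had 0 counts in every library, Lyz2 had at most 5 and Spi1 at most 4. Most of the sum was Cybb, a subunit of the phagocyte oxidase, which fell by 0.87 on the log2 scale (edgeR adjusted p = 0.0216), a call lost without Srebp2cKO replicate 7. The other 15 markers summed to 9.09 ± 0.583 CPM in Srebp2cKO and 7.64 ± 1.35 CPM in Srebp2WT, with overlap between the libraries (exact permutation p = 0.2, computed after seeing the data), so the direction of the list rests on Cybb. Itgam went the other way, with 35, 20 and 38 counts in Srebp2cKO libraries and 13, 10 and 21 counts in Srebp2WT libraries, and was not called (edgeR adjusted p = 0.108). Fcgr3 had 10, 16 and 9 counts in Srebp2cKO libraries and 2, 3 and 4 counts in Srebp2WT libraries.

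The 8 dendritic cell markers summed to at most 3.38 CPM in Srebp2cKO libraries and at most 4.12 CPM in Srebp2WT libraries (exact permutation p = 0.2), with Itgax, Flt3, Clec9a and Batf3 at 0 throughout. The B cell markers, none at 0, summed to 25.8 to 34.5 CPM in Srebp2cKO and 56.4 to 79.5 CPM in Srebp2WT (exact permutation p = 0.1). The CD8 T cell markers summed to 8.70 to 10.3 CPM in Srebp2cKO and 7.01 to 7.59 CPM in Srebp2WT (exact permutation p = 0.1). Natural killer cell markers, with Ncr1 and Klre1 at 0, summed to 3.83 to 7.55 CPM in Srebp2cKO and 4.52 to 5.66 CPM in Srebp2WT (exact permutation p = 0.7). The remaining markers of this list went in opposite directions. Klrb1c fell by 1.36 on the log2 scale (edgeR adjusted p = 0.0399), a call kept only without Srebp2WT replicate 5 among the fits with a library left out. Eomes had a log2 fold change of 0.66 and was not called (edgeR adjusted p = 0.170). The part of cells other than Tregs in the levels of the Ifi200 family was not tested.

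Genes outside the family were ranked by the likeness of their profile to that of Ifi204 or Mnda. Likeness was measured as the root mean square difference between centred log2(CPM + 0.5) profiles over the 6 libraries, which share depth and any library effect. The nearest profiles to Ifi204 were Gdpd3 on chromosome 7 (0.51), Erdr1 (1.03), Mtmr9 on chromosome 14 (1.03), Rprl3 on chromosome 8 (1.15) and Ly6k on chromosome 15 (1.28). Those nearest Mnda were closer: Ly6k (0.18), Mtmr9 (0.24), Tnfrsf13c on chromosome 15 (0.29), Gm15708 on chromosome 5 (0.42) and Ccnb1ip1 on chromosome 14 (0.46). Ly6k had 185, 246 and 105 counts in Srebp2cKO libraries, against 28, 25 and 21 counts in Srebp2WT libraries. Mtmr9 had 5473, 6146 and 3863 counts in Srebp2cKO libraries, against 620, 643 and 615 counts in Srebp2WT libraries. Replicate 8 was the lowest Srebp2cKO library in both, as in Ifi204 and Mnda, a feature that choosing genes by these same profiles favours. Gdpd3, with 2315, 1963 and 2475 counts in Srebp2cKO libraries and 55, 43 and 51 counts in Srebp2WT libraries, did not have that feature. None of the 8 genes in these lists lies on chromosome 1 where a position was found.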

How the data were processed

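Per the labels' protocols, total RNA came from a Qiagen RNeasy kit and libraries from a KAPA HyperPrep kit with ribosomal RNA removal. The deposited values are raw read counts by gene symbol, with a column for each of the 6 libraries. The submitters' processing notes name HISAT2 2.2.1, mm10 and Cell Ranger without their roles. The sources used here do not give the counting tool, annotation or strand setting, so reads shared by near-identical or antisense genes cannot be assigned with certainty. Library totals ranged from 13918321 to 17249898 counts, and 8113 genes had 0 counts in every library. Libraries of a genotype differed beyond sampling noise, with 6.71 to 34.8 chi-square units per degree of freedom.

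Genes kept by filterByExpr (11932) were scaled with TMM factors and tested, Srebp2cKO minus Srebp2WT, with edgeR 4.0.16 (R 4.3.3; quasi-likelihood F test), with Benjamini-Hochberg adjustment over all of them and calls at 0.05. Alternatives were DESeq2 1.42.0, limma-voom (limma 3.58.1), RLE or total-count scaling, other filters, removal of a loess trend (span 0.3) on transcript GC, summed family rows and each library left out. Marker sums used CPM of total counts and an exact permutation test. The fit was tested on simulated data.

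Positions, lengths and sequences came from GENCODE M21 and RefSeq on GRCm38: 23334 genes matched by symbol and 643 by RefSeq synonym. Promoters were found for 5 of the 6 members. Members, lists and tests were chosen with earlier results of these data known. Named genes were the members, called family rows, up to 4 genes with the smallest p in each list, up to 6 called neighbours and the 5 profiles most like Ifi204 or Mnda. The reads carry no molecular identifiers, so intervals and the floor of 3 counts reflect counting error only. CPM are counts scaled to the size of each library.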

Additional observations from a re-analysis of the deposited data

How the results depend on the processing

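With 1 library left out, the log2 fold change was 5.63 to 6.33 for Ifi204 and 3.08 to 3.50 for Mnda. The same fits gave -0.06 to 0.24 for Mndal, 0.00 to 0.24 for Ifi203, 0.35 to 0.54 for Aim2 and -0.25 to -0.04 for Pyhin1. With the GC trend removed, Mndal had -0.15, Ifi203 -0.15, Aim2 0.26 and Pyhin1 -0.42. The 789 genes called became 1374 with DESeq2, 1205 without a filter, and 167 (without Srebp2WT replicate 1) to 1487 (without Srebp2cKO replicate 6) with a library left out. For calls in the lists, leaving out a library gave 2 to 3 members, 1 to 3 other family genes, 0 to 1 neighbours, 0 to 6 DNA sensing genes, 0 to 4 interferon signalling genes and 0 to 13 interferon-stimulated genes. DESeq2 called 2 neighbours, 5 DNA sensing genes and 12 interferon-stimulated genes, and the fit without a filter called 5 and 11 of these last lists. The myeloid marker Mpeg1, at most 37 counts in any library, had a log2 fold change of -0.48 that ranged from -0.80 to 0.31 (without Srebp2WT replicate 1) in these fits. Except where a change of filter or sample number enters by construction, the cause of these moves was not tested. Among single named genes outside the members, 66 alternative values lost a call and 16 gained one, and 381 kept their side of the threshold. The summed myeloid markers differed by -27.3 CPM, and by 1.45 CPM with Cybb taken out of the list, an alternative chosen after seeing the data. No paired analysis was possible because the genotypes share no replicate numbers. With at most 11 counts of Ifi204 in a Srebp2WT library, the size of its ratio is limited by depth there. The count of Mnda is limited by shared sequence as well, to an extent that was not tested.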
